A study of Mus musculus with 15 samples.

Results

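The genes described are the glutathione transferases (Gst and Mgst names) and the aldehyde dehydrogenases (Aldh names with a number, a letter and a number, 1 such gene not analysed here). They were taken by gene name from the non-control probes of an Agilent mouse expression array, which gave 42 genes (23 glutathione transferases and 19 aldehyde dehydrogenases) among 37008 gene names. The 42 genes had 68 probes, of which 56 exceeded background clearly (well above it, by the scanner's own call) on 7 or more of 15 arrays. At least 1 such probe was available for 41 genes, and Gstt4 was the gene without one. The brightest probe of each gene was well above background on all 15 arrays for 37 genes.

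The tumours arose in the mammary glands of MMTV-PyMT mice, whose transgene places the polyoma middle T oncogene under a mammary tumour virus promoter that is active in mammary epithelium. All mice carried this transgene and were 20 weeks old. One group was on the B6 background (8 arrays, C57BL/6 in the series design), and the other on the Wsh background (7 arrays). Wsh is the usual name of mice with the Kit W-sh allele, an inversion beside Kit on chromosome 5, which lack mast cells as adults. By its title the series asks what mast cells do to the phenotype of tumour cells. The lack of mast cells, the Kit allele and other strain differences cannot be told apart here. Whether 2 tumours could come from 1 animal is not in the labels, so p-values cover only the spread between samples, which may be partly technical.

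Glutathione transferases join the tripeptide glutathione to reactive, electron-poor compounds, which makes these compounds more soluble and easier to export. The soluble enzymes fall into classes named alpha (Gsta), mu (Gstm), pi (Gstp), theta (Gstt), omega (Gsto) and zeta (Gstz), Gstk1 is the kappa class enzyme of mitochondria and peroxisomes, and the microsomal Mgst enzymes are membrane proteins of a separate family. Aldehyde dehydrogenases oxidise aldehydes to acids with NAD or NADP, among them retinal, aldehydes from lipid peroxidation and intermediates of amino acid and folate metabolism. Several genes of both families can be induced through Nrf2, a transcription factor that binds the antioxidant response element. Aldehyde dehydrogenase activity is also widely used to mark progenitor-like cells of the mammary gland and its tumours.

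Promoters were read first, because 5 of the mu class genes varied together over the arrays (given further on). RefSeq promoters of build GRCm38.p6, each 250 bases before to 50 after a start, matched 36 of the 42 genes by symbol (47 promoters). The core of the antioxidant response element, TGACNNNGC, was searched on both strands and with no other motif. It was found in the promoters of 6 of these genes, or 16.67%, namely Aldh1a2, Aldh9a1, Gsta3, Gstm5, Gstm7 and Mgst1, against 13.99% of 27025 genes in the same table. Counted by promoter the share was 12.77% of 47 against 12.39% of 32851. The 250 bases before the start are shown 5′ to 3′ for Gstm1 (minus strand, chr3:108017974-108018223) and Gstm3 (minus strand, chr3:107969175-107969424), whose signals were the most alike of the mu class. Gstm5 (plus strand, chr3:107895604-107895853) is shown as a mu class gene that did not vary with them, and Gsta3 (plus strand, chr1:21240335-21240584) and Gsta2 (minus strand, chr9:78347146-78347395) as alpha class genes with and without the motif. Capitals mark the motif.
Gstm1: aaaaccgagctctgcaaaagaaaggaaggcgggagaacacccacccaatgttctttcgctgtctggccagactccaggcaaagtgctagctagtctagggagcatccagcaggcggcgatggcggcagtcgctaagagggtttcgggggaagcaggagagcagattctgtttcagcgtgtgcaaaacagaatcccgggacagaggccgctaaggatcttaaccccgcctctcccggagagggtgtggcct
Gstm3: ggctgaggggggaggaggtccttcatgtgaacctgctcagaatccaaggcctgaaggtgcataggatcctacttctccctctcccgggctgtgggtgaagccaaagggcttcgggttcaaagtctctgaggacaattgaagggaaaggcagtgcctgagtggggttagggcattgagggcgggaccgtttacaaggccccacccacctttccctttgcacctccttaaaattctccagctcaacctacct
Gstm5: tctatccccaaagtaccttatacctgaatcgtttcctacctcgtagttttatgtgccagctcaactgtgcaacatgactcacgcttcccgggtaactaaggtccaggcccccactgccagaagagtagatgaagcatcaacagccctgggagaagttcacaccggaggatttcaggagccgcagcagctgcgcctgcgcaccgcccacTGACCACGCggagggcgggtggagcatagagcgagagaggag
Gsta3: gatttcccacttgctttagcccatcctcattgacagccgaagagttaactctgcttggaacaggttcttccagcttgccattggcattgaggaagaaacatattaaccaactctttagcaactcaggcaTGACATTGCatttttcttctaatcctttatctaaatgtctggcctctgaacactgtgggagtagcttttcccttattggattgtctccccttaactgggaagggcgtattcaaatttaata
Gsta2: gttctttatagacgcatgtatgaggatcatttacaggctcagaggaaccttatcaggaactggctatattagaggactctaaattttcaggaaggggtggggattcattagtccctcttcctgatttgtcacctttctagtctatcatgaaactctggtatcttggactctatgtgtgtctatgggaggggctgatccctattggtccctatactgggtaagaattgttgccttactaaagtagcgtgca
The motif lay 42 bases before the start in Gstm5 and 121 bases before it in Gsta3. No match was present in the windows of Gstm1, Gstm2, Gstm3, Gstm4 or Gstm6. Over the 250 bases, any pair of Gstm1 to Gstm6 shared a longest run of only 7 to 10 bases, pairs with Gstm5 included. These are descriptions of letters in a window and do not show binding.

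Each value is a log2 signal from which the array's 75th percentile was subtracted. A difference is the Wsh mean minus the B6 mean, given with its standard error (SE) from a limma fit to 22342 genes. A gene was called at a Benjamini-Hochberg adjusted p under 0.05 over all of them. Per array, 55.8% to 73.4% of spots other than controls stood well above background. Precision is limited by the number of arrays. The backgrounds were checked with Kit, whose B6 mean was 3.24 ± 0.62 (SD, n = 8) and whose Wsh mean was 0.59 ± 0.52 (SD, n = 7), with no overlap. The mean of epithelial markers was 3.42 or more on every array, as the tissue label implies. Transcripts of other tissue were present as well. Adipocyte marker means spanned -1.84 to 3.81 in B6 and 0.86 to 3.58 in Wsh. The mean of skeletal muscle markers was above 0 on 5 arrays, 1 of B6 (replicate 4) and 4 of Wsh (replicates 1, 3, 4 and 5), against at most -2.79 on the others. In whole tumours, fewer cells of a type and less RNA per cell cannot be told apart.

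Of the 41 genes tested, 3 were lower in Wsh tumours and 0 were higher, against 0.336% of all genes called in either direction and 0.228% called lower. The 3 were Aldh7a1, Gsta2 and Aldh3a2. None of them was called on slide 1 or slide 2 alone, where 4 and 1 of all genes were, or without the 5 arrays with skeletal muscle transcripts, where 24 of all genes were. An unadjusted limma p under 0.05 was seen for 4 of the 41, all lower, where 10.4% of all genes had one and 5.71% had one in the lower direction. The differences were below 0 for 28 of the 41 genes, against 51.8% of all genes, and above 0 for 13. Their median was -0.19 against -0.01 over all genes. Without B6 replicate 7 the median was -0.07. It was -0.04 on slide 1 alone, the same as over all genes there, and -0.38 on slide 2 alone, against 0.02 over all genes. For the 22 glutathione transferases the median was -0.25 (16 below 0), and for the 19 aldehyde dehydrogenases -0.09 (12 below 0). The 3 called genes are included in these medians, and the median of the other 38 was -0.16.

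**Figure D1:**
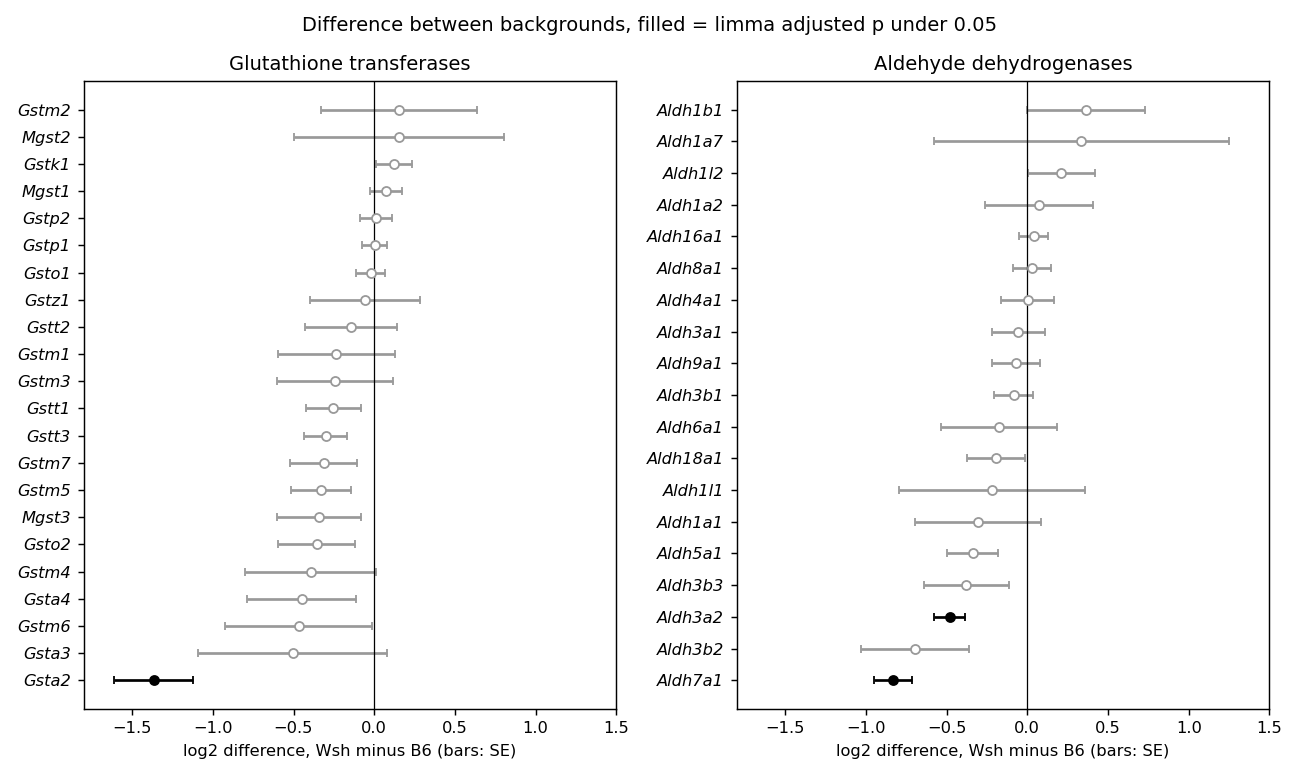
Log2 difference of each tested gene, Wsh minus B6, on the x axis, with genes on the y axis ordered by difference, glutathione transferases on the left and aldehyde dehydrogenases on the right. Points are limma estimates, bars their SE and filled points the genes called. Gsta2 at -1.36, Aldh7a1 at -0.83 and Aldh3a2 at -0.48 are filled, and most other bars reach or lie near 0.

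Aldh7a1, the enzyme of lysine breakdown that oxidises aminoadipate semialdehyde, had the smallest p of both families. Its signal spanned 4.41 to 4.81 in B6 (median 4.61) and 3.27 to 4.14 in Wsh (median 3.77). Every Wsh array lay below every B6 array, a separation in the lower direction that 0.242% of all genes showed. Levels differed 1.78-fold, the log2 difference being -0.83 (SE 0.12, limma adjusted p = 0.0045). A dimmer probe of the gene gave -0.96 with an adjusted p of 0.055 when each probe was tested on its own. The difference was -0.92 among arrays of slide 1 and -0.70 among arrays of slide 2. Without the 5 arrays with skeletal muscle transcripts it was -0.97, as large as over all arrays, but the call was lost (limma adjusted p = 0.087).

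Gsta2, an alpha class transferase that is abundant in liver and inducible through Nrf2, was represented by 1 dim probe at chr9:78178856-78178915 (build mm9). On B6 arrays that probe was well above background in 8 of 8, and on Wsh arrays in 5 of 7. Its signal spanned -3.78 to -2.58 in B6 (median -3.56) and -5.34 to -3.60 in Wsh (median -5.13). The groups overlapped through Wsh replicate 1, at -3.60, while the other Wsh arrays lay between -5.34 and -4.63. The log2 difference was -1.36 (SE 0.24, limma adjusted p = 0.032). It was -1.57 without Wsh replicate 1 (limma adjusted p = 0.0012). On slides 1 and 2 alone it was -1.25 and -1.50, and without the muscle arrays -1.38 (limma adjusted p = 0.11). The call was lost as well when the adipocyte and muscle marker means entered the fit (limma adjusted p = 0.063). The size was smaller in other versions of the values, at -0.82 (limma adjusted p = 0.026) after normexp correction with an offset of 50 and -0.94 (limma adjusted p = 0.024) in the deposited values, which kept the call. Of 15 fits that left out 1 array each the call was kept in 4, those without B6 replicates 2 or 7 or Wsh replicates 1 or 6, and the adjusted p ranged up to 0.073.

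The hepatocyte marker list was read beside Gsta2. Of its 8 genes 6 were tested, 0 were called by limma and 3 had an unadjusted p under 0.05, all lower. Differences were below 0 for 4 of the 6 and above 0 for 2. The list mean spanned -2.87 to -0.32 in B6 (median -1.51) and -2.84 to -0.24 in Wsh (median -2.34). Its highest Wsh array was replicate 1, the array within the B6 range for Gsta2, and the next Wsh array was at -1.86. Within B6 the list mean was highest in replicates 2, 7 and 4, at -0.32, -0.44 and -0.55. Gsta2 was low there, at -3.78, -3.76 and -3.63. B6 replicate 6, the highest array for Gsta2 at -2.58, had a list mean of -1.86. The part of liver-type transcripts in the Gsta2 difference was not tested.

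Aldh3a2, the fatty aldehyde dehydrogenase of the endoplasmic reticulum, was the third gene called. Its brightest probe (chr11:61058399-61058458, mm9) spanned 2.25 to 2.94 in B6 (median 2.53) and 1.81 to 2.18 in Wsh (median 2.09). The groups did not overlap, yet the difference was small at 1.40-fold (log2 difference -0.48, SE 0.10, limma adjusted p = 0.046). Among 15 other settings of the values or the fit, the call was kept in 4. The losses include normexp correction (limma adjusted p = 0.054), the deposited values (0.059) and slide as a block (0.068). The call was also lost when the adipocyte and muscle marker means entered the fit. The difference was -0.38 on slide 1 and -0.60 on slide 2, and -0.51 without the muscle arrays (limma adjusted p = 0.26). Of 15 fits that left out 1 array each the call was kept in 1, without B6 replicate 4, and the adjusted p ranged from 0.037 to 0.11.

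The 4 probes that carry the Aldh3a2 name did not move alike. Besides the brightest, other probes gave -0.32 and -0.36. The remaining one, at chr11:61036919-61036978, spanned -6.93 to -3.86 in B6 and -4.50 to -2.74 in Wsh, a difference of 1.22 in the other direction that was not called (adjusted p = 0.34 with each probe tested on its own). Its accessions matched no RefSeq gene in the table used, and in the files it lies between the probe of Aldh3a1 (chr11:61031857-61031916), a neighbouring aldehyde dehydrogenase, and the other Aldh3a2 probes. The mean of the 4 probes differed by 0.01. The neighbour Aldh3a1 itself gave -0.06 (SE 0.16, limma adjusted p = 0.95).

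**Figure D2:**
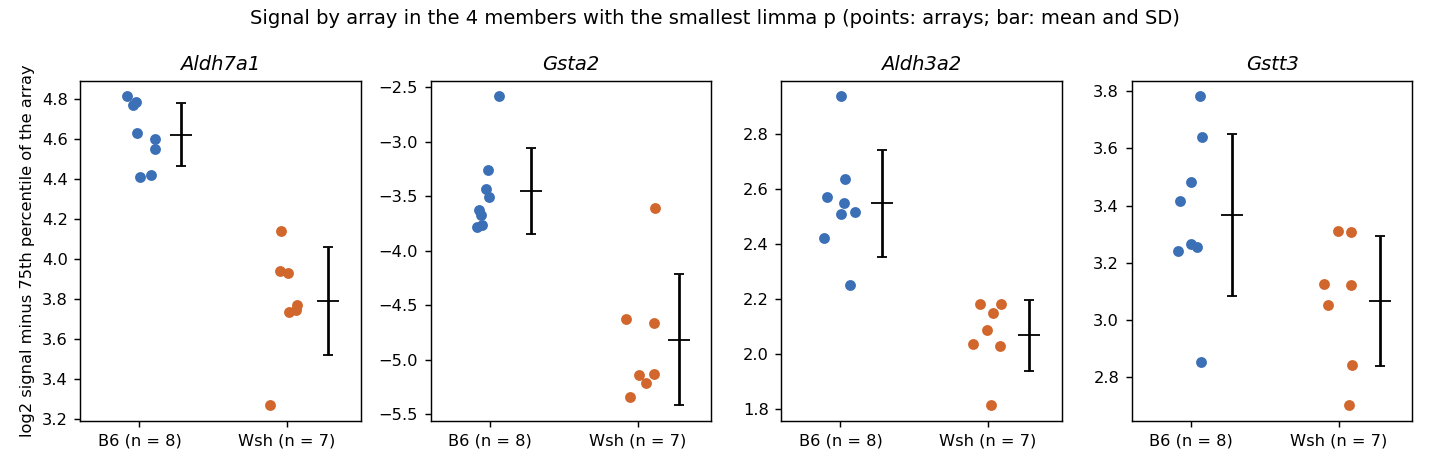
Log2 signal relative to the array's 75th percentile (y axis) on each B6 and Wsh array (x axis) for the 4 genes with the smallest p. Points are arrays, and the bar beside them is the mean with its SD. The groups are apart for Aldh7a1 and Aldh3a2 and overlap through 1 Wsh array for Gsta2. They overlap in part for Gstt3, where 4 of 8 B6 arrays lie above every Wsh array.

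Among the remaining alpha class genes, Gsta4, which conjugates the lipid peroxidation product 4-hydroxynonenal, spanned -2.57 to -0.70 in B6 (median -2.15) and -2.80 to -1.11 in Wsh (median -2.40). The groups overlapped (log2 difference -0.45, SE 0.34, limma adjusted p = 0.71). Gsta3 spanned -1.82 to 1.69 in B6 and -2.08 to 1.83 in Wsh, a spread over arrays far larger than its difference of -0.51 (SE 0.58). All 3 alpha class genes tested were below 0, and Gsta2 was the one called.

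The theta class gave the next smallest p. Gstt3 spanned 2.86 to 3.78 in B6 (median 3.34) and 2.70 to 3.31 in Wsh (median 3.12), a log2 difference that came to -0.30 (SE 0.13, limma adjusted p = 0.46). Its 95% interval reached from -0.59 to -0.01 before adjustment. Gstt1, known for its common deletion in people, spanned 1.92 to 2.67 in B6 and 1.53 to 2.70 in Wsh, with a difference of -0.25 (SE 0.17, limma adjusted p = 0.66). The brightest probe of Gstt2 gave -0.15 and its other probe 0.34, both small against an SD of 0.72 in B6. For Gstt4, 1 of 8 B6 arrays and 0 of 7 Wsh arrays were well above background, so no fold is given.

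The mu class genes lie side by side on chromosome 3, and none was called. Gstm5, a gene known for its expression in brain and testis, spanned 2.37 to 3.68 in B6 (median 2.86) and 2.22 to 2.96 in Wsh (median 2.68). Gstm7 had 2 probes, of which 1 was kept, well above background on 13 arrays. Its values were -4.94 to -3.79 in B6 and -4.97 to -3.95 in Wsh. Their differences were -0.33 (SE 0.19, limma adjusted p = 0.58) and -0.31 (SE 0.21, limma adjusted p = 0.66). Differences of the other 5 mu class genes ran from -0.47 for Gstm6 to 0.15 for Gstm2, a direction for Gstm2 that flipped on slide 2 alone. Gstm6 spanned -4.09 to -1.85 in B6 and -4.56 to -1.25 in Wsh, Gstm2 spanned -0.67 to 2.44 and -0.02 to 2.73, and Gstm4 spanned -3.82 to -2.03 and -4.62 to -1.64. Both backgrounds thus held high and low arrays for these genes.

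The pi class varied little. Gstp2 spanned 4.31 to 4.90 in B6 and 4.23 to 4.66 in Wsh, a difference of 0.01 with a 95% interval from -0.20 to 0.22. Gstp1 gave 0.00, with an interval from -0.16 to 0.17, and its SD over all arrays was 0.12. The accessions of the Gstp1 probe name both pi genes, so this probe cannot separate them. The 60 bases of that probe are shown for this reason.
Gstp1 probe: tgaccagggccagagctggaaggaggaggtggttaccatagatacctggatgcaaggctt
Gsto1, a dehydroascorbate reductase of the omega class, was close to level as well (-0.02, SE 0.09). Its neighbour Gsto2 spanned -2.82 to -1.46 in B6 and -3.18 to -1.92 in Wsh (-0.36, SE 0.24, limma adjusted p = 0.66). Gstk1 spanned 1.88 to 2.65 in B6 and 2.19 to 2.59 in Wsh (0.12, SE 0.11).

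Of the microsomal enzymes, Mgst3 spanned 0.79 to 2.03 in B6 (median 1.21) and -0.05 to 1.99 in Wsh (median 0.88), with a difference of -0.34 (SE 0.26, limma adjusted p = 0.71). Mgst2, which can make leukotriene C4, differed by 0.15 (SE 0.65) and spanned -1.73 to 2.23 in B6 and -2.59 to 1.96 in Wsh. Mgst1 gave 0.07 (SE 0.10), with all arrays between 5.24 and 6.04.

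Among the aldehyde dehydrogenases that were not called, Aldh3b2 had the largest difference. This enzyme of lipid aldehydes spanned 0.01 to 2.31 in B6 (median 1.65) and -0.18 to 1.68 in Wsh (median 0.77). The log2 difference was -0.70 (SE 0.33, limma adjusted p = 0.49), and 4 of 8 B6 arrays lay above every Wsh array. Its neighbour Aldh3b3 differed by -0.38 (SE 0.27, limma adjusted p = 0.68), spanning -2.29 to -0.46 in B6 (median -1.11) and -2.20 to -0.98 in Wsh (median -1.58). The third gene of the subfamily, Aldh3b1, gave -0.09 (SE 0.12).

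Aldh5a1, succinate semialdehyde dehydrogenase of the breakdown of the transmitter GABA, spanned -0.51 to 0.44 in B6 (median 0.09) and -0.62 to 0.10 in Wsh (median -0.44). Its difference was -0.34 (SE 0.16, limma adjusted p = 0.48). Aldh18a1, which makes the proline precursor pyrroline carboxylate, spanned 0.83 to 2.01 in B6 and 0.57 to 1.61 in Wsh, with -0.19 (SE 0.18, limma adjusted p = 0.78). The retinal dehydrogenases Aldh1a1 and Aldh1a2 gave -0.31 (SE 0.39) and 0.07 (SE 0.33), neither of them called. Aldh1b1, a mitochondrial enzyme, had the largest difference above 0, at 0.36 (SE 0.37, limma adjusted p = 0.80), and 1 array carried it. Wsh replicate 7 was at -1.38, and without it the difference was 0.05 (limma adjusted p = 0.99).

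The spread over arrays was wide for several genes that did not differ between the backgrounds by more than their error. The median SD over 15 arrays was 0.50 for the 41 genes against 0.30 over all genes tested. Aldh1a7, a rodent relative of Aldh1a1, spread the most of them (SD 1.85), reaching -2.64 to 2.51 in B6 and -2.68 to 2.55 in Wsh. Mgst2 (SD 1.31), Gsta3 (1.20) and Aldh1l1 (1.16), the folate enzyme 10-formyltetrahydrofolate dehydrogenase, followed, and Gstm2 (0.97), Gstm6 (0.95), Gsta2 (0.85) and Gstm4 (0.84) completed the 8 widest. Aldh1l1 spanned -0.10 to 2.92 in B6 and -1.33 to 2.89 in Wsh. For Aldh1a7, Aldh1l1, Gsta3 and Mgst2 the groups overlapped widely. B6 replicates 4 and 7 and Wsh replicate 1 were the 3 highest arrays for Aldh1a7, with 1.77, 2.51 and 2.55, and for Mgst2, with 0.90, 2.23 and 1.96.

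Relations over the 15 arrays were computed between each of the 41 genes and 5 marker means, and between genes of 1 class, 245 in all, with permutation p-values adjusted over them. Of these 41 passed by Pearson's r, 35 positive and 6 negative, and 31 passed by both Pearson's r and Spearman's rho. After normexp correction 36 positive and 3 negative relations passed by r, and in the deposited values 29 and 1. Gstm1, Gstm2, Gstm3, Gstm4 and Gstm6 passed in all 10 of their pairs, with r from 0.856 (Gstm1 and Gstm2) to 0.970 (Gstm1 and Gstm3). For Gstm1 and Gstm3, rho was 0.946 (permutation test, adjusted p = 0.00061 for r and 0.00049 for rho), r was 0.922 without the 2 arrays farthest from the median, 0.951 within B6 and 0.983 within Wsh, and 0.966 and 0.988 within the slides. B6 replicates 4 and 7 and Wsh replicate 1 were the 3 highest arrays for each of the 5 genes. Over the other 12 arrays, a setting chosen after seeing the values, r ran from 0.387 to 0.836 in these pairs. Gstm5 and Gstm7 passed with none of the 5. The probes were placed on chromosome 3 in the files, from Gstm5 (chr3:107701511-107701570) through Gstm7, Gstm6, Gstm3 and Gstm2 to Gstm4 (chr3:107846495-107846847, mm9), but the brightest Gstm1 probe was placed on chromosome 5. The mu class genes resemble each other in sequence, so a signal may include that of a related gene, and its split between them is uncertain.

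**Figure D3:**
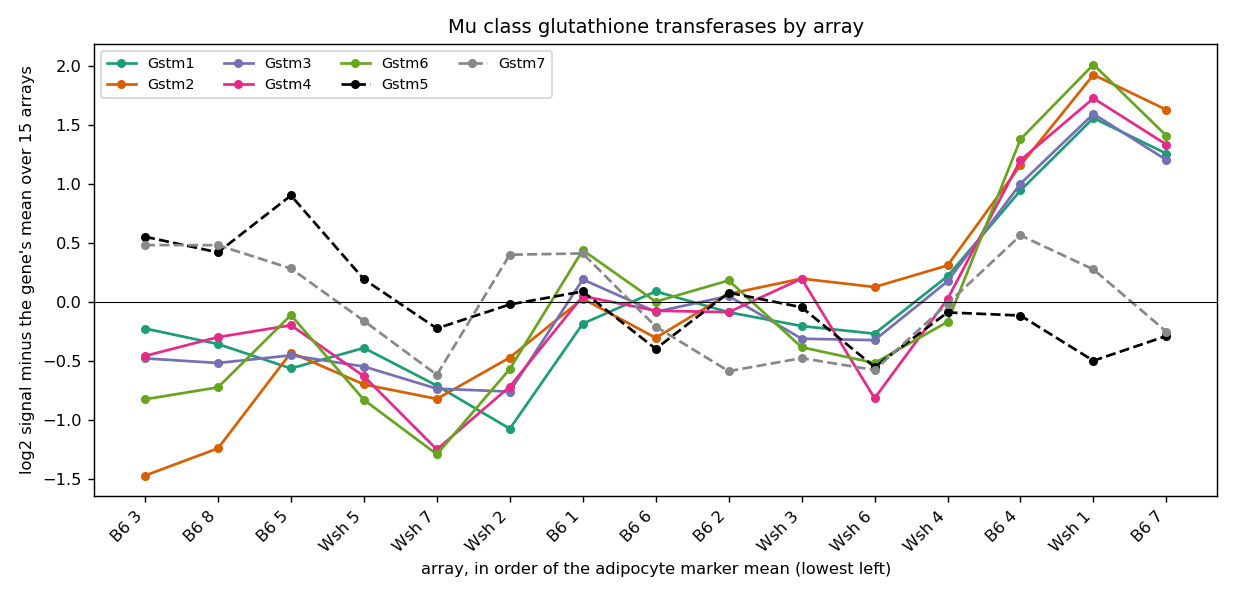
Log2 signal of 7 mu class genes minus each gene's mean over 15 arrays (y axis), with arrays on the x axis in order of their adipocyte marker mean. Solid lines join Gstm1, Gstm2, Gstm3, Gstm4 and Gstm6, which are highest on B6 replicates 4 and 7 and Wsh replicate 1. Dashed lines join Gstm5 and Gstm7, which do not share this pattern, although Gstm7 is also highest on B6 replicate 4.

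The same arrays had the highest adipocyte marker means, 3.05, 3.81 and 3.58. They also had the highest means of fibroblast and matrix markers (3.74, 3.70 and 3.82) and of endothelial markers (-0.39, -0.24 and 0.06). Their epithelial marker means were the lowest of the 15 arrays, at 3.83, 3.56 and 3.42. Against the mean of 15 adipocyte markers, Gstm2 had r = 0.909 and rho = 0.964 (permutation test, adjusted p = 0.00061 and 0.00049), and r was 0.919 without the 2 farthest arrays, 0.931 within B6 and 0.930 within Wsh. Over the 12 other arrays its r was 0.913. Aldh1a7 had r = 0.863 and rho = 0.868 (permutation test, adjusted p = 0.00061 and 0.0018), and Mgst2 had 0.803 and 0.879. Gstz1, the maleylacetoacetate isomerase of tyrosine breakdown, had 0.788 and 0.932, and Aldh6a1, the methylmalonate semialdehyde dehydrogenase of valine breakdown, 0.785 and 0.843. Aldh1l1 (0.727 and 0.857) was lower over the 12 other arrays, at r = 0.458. Aldh1a2, Gstp1 and Gstm4 passed by r alone (0.750, 0.705 and 0.657). The other mu class genes of the group of 5 had r from 0.657 (Gstm4) to 0.725 (Gstm3). Over the 12 other arrays it ran from 0.275 (Gstm4) to 0.478 (Gstm3). In the deposited values Aldh1a2, Gstm4 and Gstm6 no longer passed by r (permutation test, adjusted p = 0.0501, 0.065 and 0.060). After normexp correction these 3 genes still passed. The part of adipocyte content, or of other tissue content, in these relations was not tested further.

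Signal opposite to the adipocyte mean was found for Gstt3 and Gstm5. Gstt3 had r = -0.847 and rho = -0.829 (permutation test, adjusted p = 0.0010 and 0.0034), with -0.748 without the 2 farthest arrays and -0.820 over the 12 others. Gstm5 had r = -0.705 and rho = -0.771 (permutation test, adjusted p = 0.028 and 0.010). In the deposited values Gstt3 still passed (r = -0.805, permutation test, adjusted p = 0.0020) and Gstm5 did not (r = -0.616, adjusted p = 0.076), while both passed after normexp correction. The macrophage mean passed by r with 13 genes, the strongest being Gstm2 (r = 0.855) and Mgst2 (0.750), and 12 of the 13 also passed with the adipocyte mean. Its remaining gene was Aldh16a1 (r = -0.672, rho = -0.704, permutation test, adjusted p = 0.038 and 0.036), which did not pass after normexp correction (r = -0.560) or in the deposited values (r = -0.313). The macrophage relations of Gstt3 (r = -0.680) and Gstm5 (-0.658) were lost in both. Those of Aldh1a2, Gstm4 and Gstm6 were lost in the deposited values only. In these arrays the adipocyte and macrophage means were themselves related (r = 0.838, rho = 0.861, permutation test, adjusted p = 0.0014 and 0.0012), so the 2 cannot be told apart for these genes. Relations with the fibroblast, endothelial and epithelial means were not computed. Those means were extreme on the same arrays as the adipocyte mean, so they cannot be told apart from it here either. Aldh7a1, Gsta2 and Aldh3a2 did not pass with the adipocyte mean (r = -0.380, -0.108 and -0.334). For these genes an r over both groups also holds the difference between the groups. Their r was -0.775, -0.195 and -0.609 within B6, and -0.137, 0.600 and 0.701 within Wsh.

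**Figure D4:**
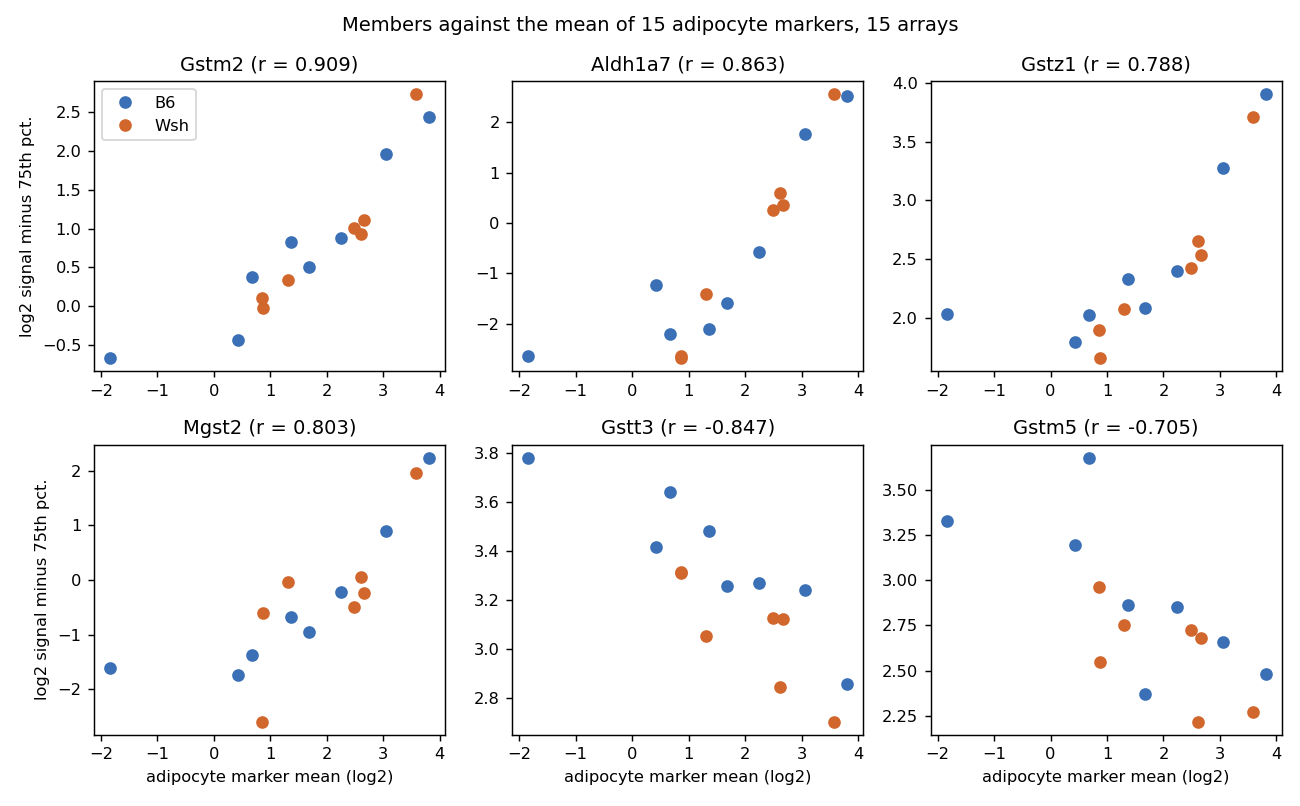
Log2 signal of 6 genes relative to the array's 75th percentile (y axis) against the mean of 15 adipocyte markers (x axis), 1 point per array coloured by background. Gstm2, Aldh1a7, Gstz1 and Mgst2 are higher and Gstt3 and Gstm5 lower where the adipocyte mean is high, in both backgrounds, with r printed above each panel.

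The other relations were between genes of 1 class or with other marker means. Aldh3b2 and Aldh3b3 had r = 0.945 and rho = 0.939 (permutation test, adjusted p = 0.00061 and 0.00049), with 0.985 within B6 and 0.869 within Wsh, 0.873 and 0.981 within the slides, and 0.924 over the 12 other arrays. Gsto2 followed the mean of hormone-sensing luminal markers such as Esr1 and Pgr, with r = 0.839 and rho = 0.861 (permutation test, adjusted p = 0.0018 and 0.0016). Within slide 1 its r was 0.571 and within slide 2 it was 0.978. With the adipocyte mean, Aldh3b2 and Gsto2 did not pass (r = 0.390 and 0.374). Their r with it was 0.911 and 0.839 within Wsh, and 0.451 and 0.342 within B6. Gstt1 and the mean of alveolar and milk markers passed by r alone (r = -0.652, permutation test, adjusted p = 0.0497), with -0.268 without the 2 farthest arrays, and did not pass in the deposited values. Aldh1a1 and Aldh1a7, neighbours on chromosome 19, had r = 0.695 (permutation test, adjusted p = 0.033) but 0.411 without the 2 farthest arrays and 0.122 over the 12 others, so the relation rests on the 3 arrays left out.

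**Figure D5:**
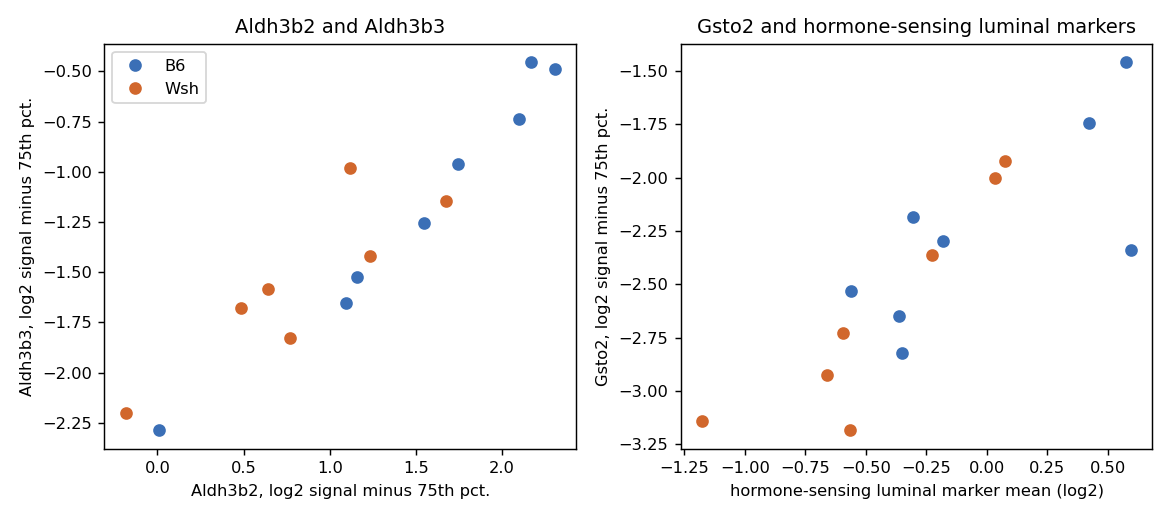
Left, Aldh3b3 (y axis) against Aldh3b2 (x axis), both as log2 signal relative to the array's 75th percentile. Right, Gsto2 on the same scale (y axis) against the mean of hormone-sensing luminal markers (x axis). Points are arrays coloured by background, and in both panels arrays of both backgrounds lie along 1 upward slope.

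The surrounding pathways were read from 7 gene lists with 171 genes, of which 144 were tested and none was called by limma, with an unadjusted p under 0.05 for 12. Over the 144 the median difference was -0.04. In the list of glutathione synthesis and turnover, 0 of 23 tested genes were called. Differences were below 0 for 20 of them but small, with a median of -0.07, where 51.8% of all genes were below 0. The smallest p was that of the peptidase gene Anpep (-0.20, SE 0.11, limma adjusted p = 0.57), followed by the glyoxalase Glo1 (-0.19, SE 0.12). Among the Nrf2 pathway and its targets, 0 of 28 were called and 14 were below 0. The carbonyl reductase Cbr1 came closest, with -0.38 (SE 0.09, limma adjusted p = 0.082), while Ugdh, which makes UDP-glucuronate, gave 0.34 (SE 0.10, limma adjusted p = 0.22). In the proline, amino acid and one-carbon list, 0 of 25 were called. Pycr1, which completes the proline synthesis begun by Aldh18a1, gave -0.61 (SE 0.14, limma adjusted p = 0.096), and Aass, which acts before Aldh7a1 in lysine breakdown, gave -0.46 (SE 0.19, limma adjusted p = 0.42). The retinoid list had 0 of 24 called, with 0.68 for the retinoic acid hydroxylase Cyp26b1 (SE 0.30) and 0.24 for the receptor Rxra (SE 0.11). The peroxidases and peroxiredoxins (0 of 16), the other transferase-fold genes (0 of 16) and the alcohol dehydrogenases and aldo-keto reductases (0 of 14) had no call either, and named from them by the same rule are Prdx5 (-0.17), Sod2 (0.26), Clic3 (-1.41), Hpgds (0.31), Akr1b8 (-0.27) and Aldh2 (-0.17).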

How the data were processed

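RNA of 15 tumours was labelled with 1 dye (Cy3). Per the file headers, Agilent Feature Extraction 10.7.3.1 gave the spot intensity used here, which is background-subtracted and detrended but not scaled between arrays. The authors also deposited log2 values of the same arrays, used as an alternative. How they were corrected and normalized, and their centring, stay unknown. The submitters' processing notes name limma. Main values were the log2 intensity less the 75th percentile of the array. Probes well above background on at least 7 arrays were kept, the brightest standing for its gene. Groups were tested by limma (version 3.58.1, R 4.3.3, two-sided, Benjamini-Hochberg adjustment), and relations by Pearson's r and Spearman's rho with 100000 permutations. The fit was tested on simulated data. By rule, values are given for the genes called, the 15 with the largest moderated t, the 8 with the largest SD, Gstt4 and 2 genes of each pathway list. Relations are given for the genes named, the others by counts and ranges. Gsto1, Gstp1, Gstp2, Mgst1, Gstt2, Gstz1, Gstm1, Gstm3, Aldh16a1, Aldh6a1, Aldh1a1, Aldh1a2, Aldh1b1, Aldh3a1 and Aldh3b1 were added after their values were seen. The genes and lists were chosen with earlier results of these data known.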

Additional observations from a re-analysis of the deposited data

Results flagged for a closer look

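Each of the 41 tested genes was looked at in both groups for 1 array standing apart from the rest by Dixon's gap, 82 groups in all, of which 9 met it. Chance gives about 1 in 20. Wsh replicate 1 was highest by such a gap for Gstm2 (2.73, next 1.11), Gstm3 (3.23, next 1.80), Gstm6 (-1.25, next -3.43), Aldh6a1 (3.52, next 2.26) and Gsta2 (-3.60, next -4.63). This array also had the highest adipocyte mean of Wsh, 3.58, the highest fibroblast and matrix mean, 3.82, and the lowest epithelial mean, 3.42. The part of tissue content in these values was not tested. B6 replicate 6 was highest for Gsta2 at -2.58 (next -3.26), and B6 replicate 8 lowest for Gstt2 at -2.01 (next -0.82). Wsh replicate 5 was lowest for Aldh3a2 at 1.81 (next 2.03), and Wsh replicate 2 lowest for Gstp2 at 4.23 (next 4.52).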

How the results depend on the processing

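Of the 3 calls, Aldh7a1 was kept in all 15 fits that left out 1 array (log2 difference -0.89 to -0.75) and lost within each slide, under the replicate block (adjusted p = 0.10) and without the 5 muscle arrays, while its difference stayed between -0.97 and -0.70. Genes of these families called numbered 1 with no filter on dim probes, 1 with adipocyte and skeletal muscle means as covariates, 0 on slide 1 alone, 0 on slide 2 alone, 0 without the 5 muscle arrays, 0 with the replicate block, and 1 to 2 with 1 array left out. Each kept probe was also tested on its own, a setting added after seeing the data. There 3 of 56 probes of these families were called, against 114 of 34346 kept probes of all genes. Over all genes, 75 calls became 25 with no filter, 4 and 1 on slides 1 and 2, 15 with the replicate block, 170 with array weights, 132 with the covariates, 24 without the muscle arrays, and 25 to 76 with 1 array left out. Of the pathway list genes, 1 was called with median scaling, 1 in the deposited log2 values (Pycr1 in both) and 3 with array weights. Kit was -2.32 on slide 2 alone, not called (adjusted p = 0.37). Once each gene's group mean was removed, same-numbered samples correlated from -0.24 to 0.21, so the numbers were not read as pairs. Median scaling moved the median of all genes to -0.11 and that of the families to -0.29. Relations passing by r numbered 41, against 39 after normexp and 30 for the deposited values. The median of the families lay between -0.38 and -0.04 in all settings run.

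No reversed difference was called. Slide 2 alone gave 0.20 for Aldh18a1, -0.95 for Aldh1a7, -0.38 for Gstm2 and -0.59 for Mgst2, and slide 1 alone gave 0.28 for Aldh1l1, 0.13 for Gstm4 and 0.04 for Gsto2. The covariates gave -0.59 for Aldh1a7, -0.33 for Gstm2 and -0.10 for Mgst2. Without the muscle arrays Aldh18a1 was 0.01, Aldh1a7 -0.05 and Gstm2 -0.14. The replicate block gave -0.02 for Gstm2 and -0.03 for Mgst2, and the mean of probes 0.01 for Aldh3a2. With 1 array left out, the range was -0.16 to 0.80 for Aldh1a7, -0.58 to 0.12 for Aldh1l1, -0.16 to 0.39 for Gstm2 and -0.22 to 0.54 for Mgst2. The other 14 genes named by the rule kept their sign in all settings that could be fitted. The cause of these changes was not tested. Signals near background, as for Gsta2 and Gstm7, limit what the arrays can resolve.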
